A study of Mus musculus with 12 samples.

Results

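The genes of the proteasome were followed in peritoneal macrophages (Mϕ) during the resolution of zymosan-induced peritonitis, with and without a blocker of mPGES-1, the inducible microsomal synthase that makes prostaglandin E2 (PGE2). The genes were taken by name: protein-coding genes whose symbol starts with Psma, Psmb, Psmc, Psmd or Psme followed by a number. This rule found 45 of the 47643 listed gene identifiers, and 42 of the 45 had a mean of at least 3 normalized counts in the tables of both Mϕ subpopulations and were tested. Psma8, an alpha subunit of the testis, had a mean of 1.61 in F4/80hi and 1.67 in F4/80lo Mϕ, and Psmc3ip, which shares the symbol but is a recombination protein and no proteasome subunit, had 0.88 and 0.42. Psmb11, the catalytic subunit of the thymus proteasome, had 0 reads in all 12 libraries. The lowest means among the 42 genes tested were 13.3 (Psmb5 in F4/80lo Mϕ) and 13.2 (Psme2b in F4/80hi Mϕ).

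Female C57BL/6 mice of 8 to 12 weeks were given zymosan A i.p. at 5 mg/kg, and all groups carried this inflammation. Compound III (CIII), which inhibits mPGES-1, was injected i.p. every day from day 1 at 25 mg/kg, and controls were given its vehicle (VEH) of Tween-80 and carboxymethyl cellulose in saline. At day 6, CD45+ CD11b+ Mϕ of the lavage were sorted into F4/80lo and F4/80hi cells. The authors take F4/80lo cells (low F4/80 and MerTK, MHCII-positive, Ly6G-negative) as infiltrating cells that derive from monocytes. F4/80hi cells (high F4/80 and MerTK) are taken as the resident population. Each treatment and subpopulation had 3 libraries of mRNA 3′ ends with unique molecular identifiers, and no source used here says whether each came from its own mouse, so p-values measure the spread between libraries.

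The proteasome is the protease that degrades ubiquitin-tagged proteins in cytosol and nucleus. Its core particle is a barrel of alpha and beta rings, in which Psmb5, Psmb6 and Psmb7 are the constitutive catalytic subunits, and the regulatory particle on its ends recognizes, unfolds and feeds substrates with the Psmc ATPases and the Psmd subunits. In the immunoproteasome, Psmb8, Psmb9 and Psmb10 take the place of the catalytic subunits in newly built cores, which favours peptides that bind MHC class I. Interferon-γ raises these subunits and the PA28 activator encoded by Psme1 and Psme2.

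The libraries held between 426624 and 3389448 reads on genes, and the 42 proteasome genes between 1645 and 13663 of them. Reads of a proteasome gene ranged from 6 to 399 per library of F4/80hi Mϕ and from 1 to 1083 per library of F4/80lo Mϕ, and CIII library 2 of F4/80lo Mϕ was the shallowest. That library also held the most resident Mϕ marker counts of its sort, with a sum over 7 genes of 1439 against 381 to 752 in the other 5. Macrophage genes were high in all libraries, but the F4/80hi libraries numbered 3 went against their sort: their summed normalized counts of the same markers were 392 (VEH) and 578 (CIII), against 2204 to 3248 in the other F4/80hi libraries, and their share of reads on Gm42418 was 7.82% and 2.86%, against at most 0.58%. The number-3 libraries of F4/80lo Mϕ shared this high share (14.3% and 2.65%). Counts and some named results are therefore also given without both libraries numbered 3. In that setting 4.03% of all genes were lower and 3.48% higher at an unadjusted p under 0.05 in F4/80hi Mϕ, against 3.67% and 2.17% for F4/80lo Mϕ. Of the marker lists for other cells, the 5 mesothelial genes were at 0 throughout. Summed counts in F4/80hi Mϕ were 24.8 to 90.1 (VEH) and 9.61 to 14.2 (CIII) for 7 neutrophil genes, with Camp, Ltf, Ly6g and Ngp at 0, and 0 to 43.0 and 10.9 to 57.8 for 7 B cell genes. The 6 genes of infiltrating Mϕ summed to 607 to 3160 in VEH and 1245 to 10392 in CIII libraries of F4/80hi Mϕ, and to 4365 to 11767 and 13714 to 22404 in F4/80lo Mϕ. The highest sum in each F4/80hi group, and the lowest in VEH libraries of F4/80lo Mϕ, was that of library 3. For F4/80lo Mϕ the neutrophil sums were 14.1 to 30.0 (VEH) and 5.67 to 16.0 (CIII). The B cell sums there were 23.0 to 126 and 26.5 to 175. The 5 dendritic cell genes summed to 4.66 to 225 and 27.6 to 148 in F4/80lo Mϕ. In F4/80hi Mϕ they summed to 1.33 to 19.6 and 1.20 to 7.94. The T and NK cell sums reached at most 32.5. The part of these markers in the results was not tested. In bulk RNA, a change in cells of one kind and a change in RNA per cell cannot be told apart.

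To show the promoters of 4 exchangeable subunits and of Psmb4, the bases around 5 start sites were read from RefSeq (GRCm38.p6), from 150 before to 10 after the start. Psmb5 and Psmb6 are the constitutive partners of the immunoproteasome subunits Psmb8 and Psmb9, and Psmb4 is the core gene that differed most in F4/80hi Mϕ. Capitals mark a match to the antioxidant response element core TGACNNNGC (Psmb5, Psmb6), the interferon-stimulated response element core GAAANNGAA (Psmb4, where it reads in reverse) or the gamma-activated site core TTCNNNGAA (Psmb8), each searched on both strands. No match lies in the Psmb9 stretch. Psmb4 lies at chr3:94886949-94887108 (minus strand), Psmb5 at chr14:54617986-54618145 (minus strand), Psmb6 at chr11:70525207-70525366 (plus strand), Psmb8 at chr17:34198045-34198204 (plus strand) and Psmb9 at chr17:34187321-34187480 (minus strand). By the GENCODE gene spans, the stretches of Psmb8 and Psmb9 lie within those genes, those of Psmb4 and Psmb5 reach into theirs from upstream, and that of Psmb6 ends just before its gene.
Psmb4: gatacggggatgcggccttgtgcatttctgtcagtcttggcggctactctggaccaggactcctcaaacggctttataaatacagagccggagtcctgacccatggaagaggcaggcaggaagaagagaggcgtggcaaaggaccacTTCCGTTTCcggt
Psmb5: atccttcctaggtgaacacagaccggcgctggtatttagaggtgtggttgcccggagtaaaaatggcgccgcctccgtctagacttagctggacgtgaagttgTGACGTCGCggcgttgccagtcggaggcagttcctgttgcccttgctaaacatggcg
Psmb6: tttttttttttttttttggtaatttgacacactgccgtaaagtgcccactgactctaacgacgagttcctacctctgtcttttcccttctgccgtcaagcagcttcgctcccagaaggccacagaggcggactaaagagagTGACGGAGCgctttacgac
Psmb8: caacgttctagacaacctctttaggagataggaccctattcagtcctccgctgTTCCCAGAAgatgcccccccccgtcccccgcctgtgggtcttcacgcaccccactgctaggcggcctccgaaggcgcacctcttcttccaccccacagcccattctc
Psmb9: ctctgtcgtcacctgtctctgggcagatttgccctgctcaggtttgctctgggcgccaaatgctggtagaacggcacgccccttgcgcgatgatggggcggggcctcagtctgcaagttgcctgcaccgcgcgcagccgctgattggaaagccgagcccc

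In whole windows of 300 bases, 250 of them before the start, the antioxidant core was found at 6 of the 38 proteasome genes with a window (Psmb5, Psmb6, Psmc6, Psmd12, Psmd9 and Psme4), against 14.0% of the 27025 genes with one. The interferon-stimulated core was found at 6 of 38 (Psmb3, Psmb4, Psmc2, Psmd4, Psmd9 and Psme1), against 9.76%, and the gamma-activated core at 2 of 38 (Psmb8 and Psmd2), against 9.55%. Matches of different motifs did not overlap. The motifs were chosen after the expression values were known, and a match is a description of letters.

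Of 14 constitutive core genes, 5 were lower after CIII at an unadjusted p under 0.05 in F4/80hi Mϕ, and 0 passed adjustment. Of the 42 proteasome genes, 36 were lower and 6 higher in CIII than in VEH libraries, with a median log2 fold change of -0.40, while 46.5% of all 10499 genes tested were lower and their median was 0.05. The median of the proteasome genes ran from -0.56 to -0.23 when 1 library was left out (-0.23 without VEH library 3, -0.26 without CIII library 3), and was -0.20 with array weights, with 31 genes lower. The 42 genes took up 0.490% ± 0.022 of the counts in VEH and 0.385% ± 0.059 in CIII libraries (SD, n = 3), and the ranges did not overlap (0.468 to 0.512% against 0.344 to 0.452%). At an unadjusted p under 0.05 (limma on log2 of the normalized count plus 1), 5 proteasome genes were lower and 0 higher, against 2.65% of all genes lower and 1.29% higher. With the replicate number as a block, 8 were lower and 1 higher (background 6.24% and 5.07%). Groups did not overlap in 7 genes that were lower and in 0 that were higher (background 5.76% and 4.73%). After Benjamini-Hochberg adjustment 0 genes of any kind passed 0.05, with or without the block (0% of all genes), the smallest adjusted p of a proteasome gene being 0.992 without and 0.156 with it. Over all alternatives this smallest value ran from 0.0867 (DESeq2) to 1.00 (edgeR), and neither tool called a gene after adjustment.

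**Figure D1:**
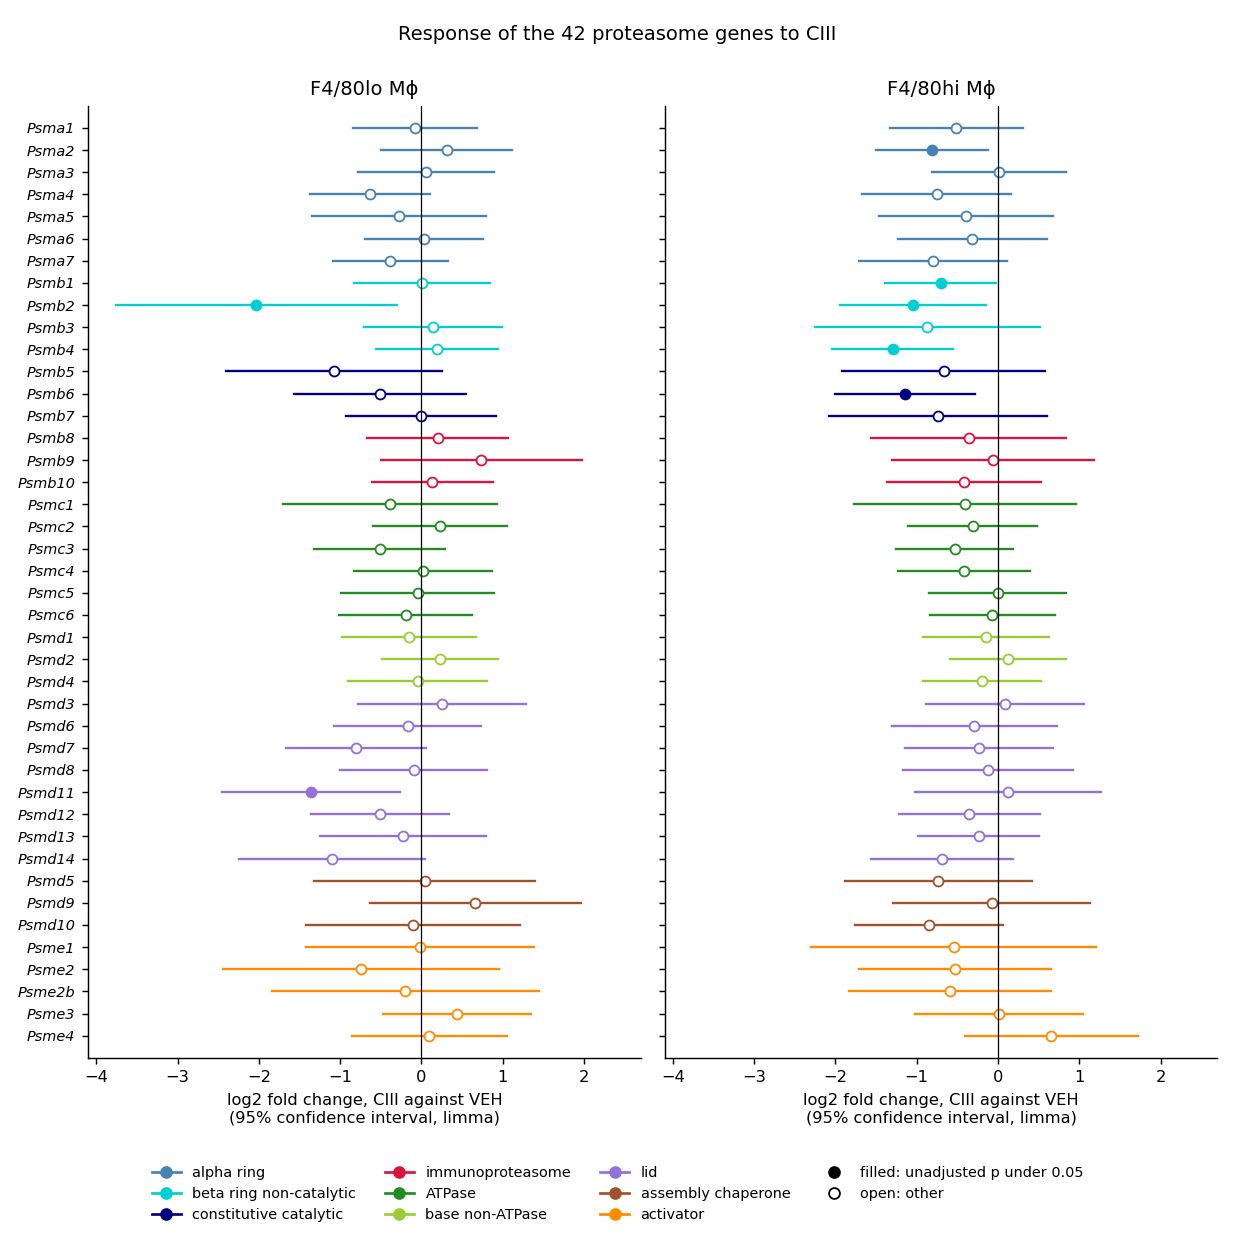
Log2 fold change of CIII against VEH (x axis) for each of the 42 proteasome genes (y axis) in F4/80lo and F4/80hi Mϕ, coloured by class, with 95% confidence intervals; filled points passed an unadjusted p under 0.05. In F4/80hi Mϕ the 5 filled points belong to alpha and beta ring genes, and in F4/80lo Mϕ the 2 filled points are Psmb2 and Psmd11.

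The 5 genes were all of the constitutive core. Psmb4, a non-catalytic beta subunit, had 278, 229 and 385 normalized counts with VEH against 136, 115 and 104 with CIII. All CIII libraries lay below all VEH libraries, and the log2 fold change was -1.30 (SE 0.33, 95% CI -2.04 to -0.55; limma, adjusted p = 0.992 and 0.156 with the block). Psmb6, the catalytic subunit with caspase-like activity, had 229, 110 and 145 counts after VEH and 90.2, 56.5 and 64.5 after CIII. These values did not overlap either, with a log2 fold change of -1.14 (SE 0.38, 95% CI -2.00 to -0.28). The inactive beta subunit Psmb2 had 34.6, 53.6 and 51.4 counts against 26.0, 22.8 and 17 (log2 fold change -1.05, 95% CI -1.94 to -0.15), again without overlap. Psmb1, a further inactive beta subunit, had 334, 293 and 388 counts against 214, 202 and 201, a log2 fold change of -0.71 (95% CI -1.39 to -0.03). Psma2, of the alpha ring that gates the barrel, had 214, 219 and 267 counts against 141, 145 and 113, a log2 fold change of -0.81 (95% CI -1.50 to -0.12). In all 5 genes the groups did not overlap, which by itself puts CIII lower within each of the 3 replicate numbers. Psma2 overlaps the gene AW209491 on the same strand, so that its reads could be shared.

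Which of the 5 passed depended on the libraries and the processing. Psmb4 passed whichever single library was left out and without both numbered 3 (log2 fold change -1.004). Psmb6 missed the threshold without VEH library 1 (-0.86) and without CIII library 2 (-1.001), and passed without both numbered 3 (-1.14). Psma2, Psmb1 and Psmb2 missed it without both numbered 3, at -0.59, -0.59 and -0.80. Leaving out 1 library at a time, Psmb1 missed it in 5 of 6 cases, passing only without VEH library 2 (-0.60 to -0.81 over all 6). Psma2 missed it in 4 of 6 cases (without VEH library 3 or any CIII library, -0.69 to -0.88), and Psmb2 in 4 of 6 (without VEH library 2 or 3 or CIII library 2 or 3, -0.88 to -1.24). Psmb1 also missed it with edgeR (-0.72), quantile normalization (-0.66) and no filter on low values (-0.71), and Psmb2 with array weights (-0.82). The number of lower genes was 3 without VEH library 1, 3 without VEH library 3, 1 without CIII library 2 and 2 without CIII library 3. Equal totals per library shifted the median of all genes from 0.05 to 0.15, and then 32 of 42 proteasome genes were lower, with a median of -0.29 and 3 genes past the threshold (Psmb2, Psmb4 and Psmb6).

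**Figure D2:**
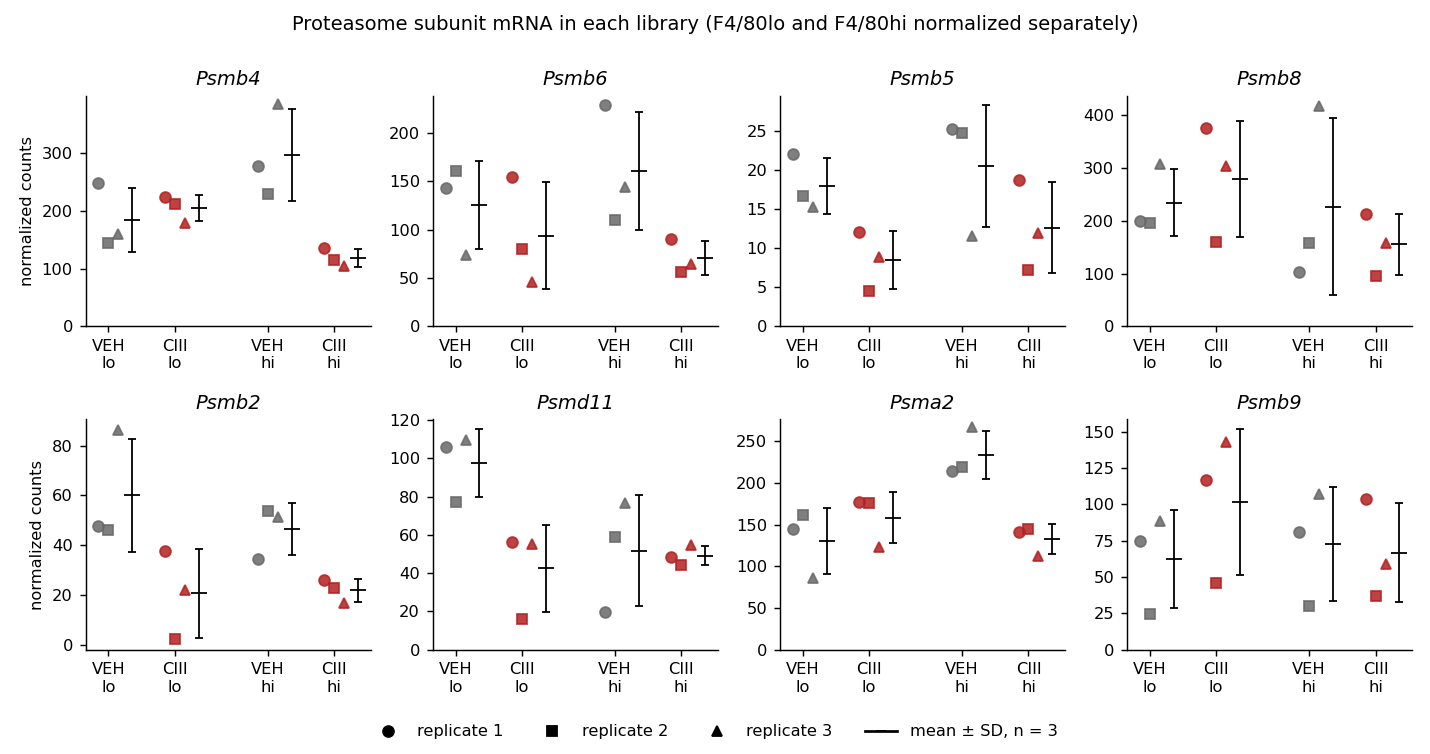
Normalized counts (y axis) of 8 proteasome genes in each of the 12 libraries, by treatment and subpopulation; symbols mark the replicate number and bars the mean ± SD of 3 libraries. In F4/80hi Mϕ the CIII libraries of Psmb4, Psmb6, Psmb2 and Psma2 lie below all VEH libraries, and in F4/80lo Mϕ those of Psmb5, Psmb2 and Psmd11 do.

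Classes were then compared in F4/80hi Mϕ. Of the 14 constitutive core genes 13 were lower, with a median log2 fold change of -0.75, and the exception was Psma3 at 0.01 (-0.011 with quantile normalization). The 4 non-catalytic beta genes had a median of -0.96, the 3 constitutive catalytic genes -0.74 and the 7 alpha genes -0.51. Psmb3, the other inactive beta subunit, had a log2 fold change of -0.87 (95% CI -2.26 to 0.51), with overlapping groups. With the block, the alpha ring genes Psma4 (-0.76) and Psma7 (-0.80) and the catalytic subunit Psmb7 (-0.74), which has trypsin-like activity, also passed as lower. Psma4 was at -1.17 without CIII library 1, and Psmb7 was at -1.31 without VEH library 3 and -0.25 without CIII library 3. Of the 17 regulatory particle genes 14 were lower, but their median was -0.24 and 0 passed, with or without the block. That median was -0.063 without CIII library 3 and -0.070 with array weights, each with 11 of 17 lower, while the core median ran from -0.95 to -0.59 when 1 library was left out. The 6 ATPases ran from -0.53 (Psmc3) to -0.0015 (Psmc5, which was at 0.10 with equal totals per library), the base scaffold genes from -0.19 (the ubiquitin receptor Psmd4) to 0.12 (Psmd2), and the lid genes from -0.69 (the deubiquitinase Psmd14) to 0.12 (Psmd11, which was at -0.076 with edgeR). Psmc3 had 105, 161 and 137 counts after VEH against 88.1, 90.1 and 95.2 after CIII and was the regulatory particle gene without overlap.

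Classes were also set against each other within each library. The mean log2 level (of the normalized count plus 1) of the 14 core genes minus that of the 17 regulatory particle genes was 0.55, 0.25 and 0.16 with VEH against 0.05, -0.38 and -0.21 with CIII for F4/80hi Mϕ, without overlap. In F4/80lo Mϕ it was 0.22, -0.10 and -0.11 after VEH and 0.07, -0.11 and -0.01 after CIII, which overlapped. As a share of counts, core genes took 0.210 to 0.242% in VEH and 0.119 to 0.180% in CIII libraries of F4/80hi Mϕ, and regulatory particle genes 0.167 to 0.200% and 0.146 to 0.186%. Without both libraries numbered 3, the median log2 fold change of the core genes was -0.60 with 14 of 14 lower, and that of the regulatory particle genes -0.08 with 9 of 17 lower. The median over all 42 genes was then -0.16, with Psmb4 and Psmb6 passing as lower and Psme4 as higher.

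**Figure D3:**
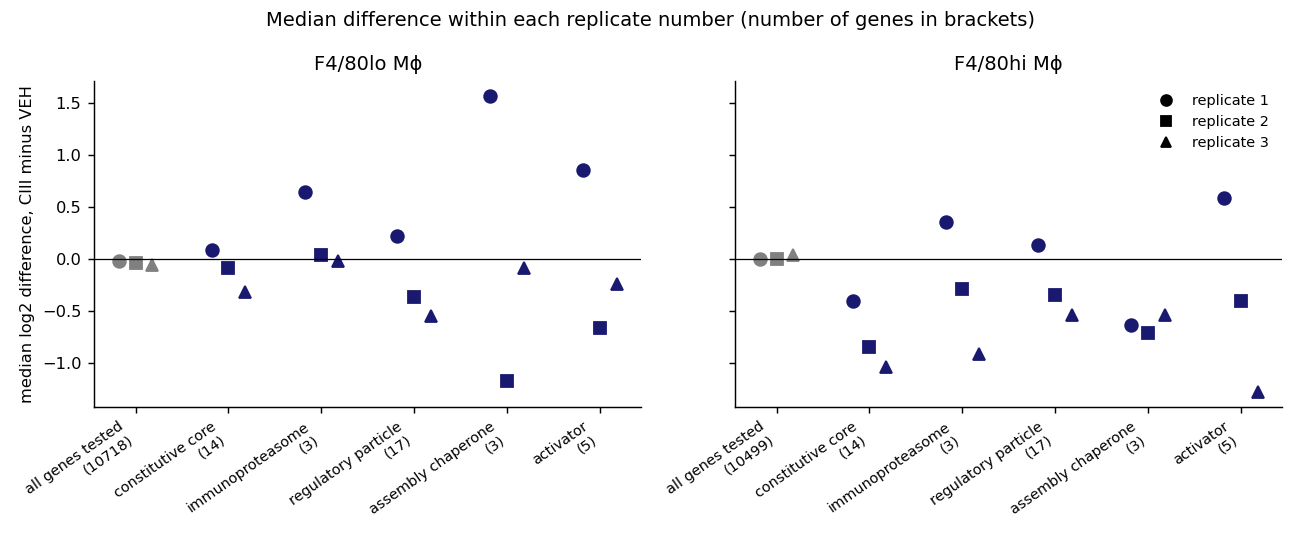
Median log2 difference of CIII minus VEH within each replicate number (y axis) for all genes tested and for 5 classes of proteasome genes (x axis, number of genes in brackets), in F4/80lo and F4/80hi Mϕ. In F4/80hi Mϕ the core medians are -0.40, -0.84 and -1.03, all below 0, whereas the regulatory particle medians are 0.13, -0.35 and -0.54.

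The assembly chaperones of the base, Psmd5, Psmd9 and Psmd10, were lower in F4/80hi Mϕ after CIII, with log2 fold changes of -0.73, -0.08 and -0.85 (Psmd9 was at 0.02 with equal totals per library), and none passed. Psmd10 had 31.9, 39.2 and 34.6 counts after VEH against 20.2, 14.4 and 23.5 after CIII, without overlap (95% CI of the log2 fold change -1.76 to 0.06). Among the activators, which open the alpha ring without ATP, Psme4 had the highest fold change, with 50.5, 56.2 and 141 counts against 86.6, 106 and 174. Its groups overlapped, its log2 fold change was 0.65 (95% CI -0.41 to 1.72) and passed with the block and without VEH library 3, and CIII was higher within each replicate number. It was 1.12 without VEH library 3 and 0.37 without CIII library 3. The PA28 genes Psme1 and Psme2 had log2 fold changes of -0.55 (95% CI -2.30 to 1.20) and -0.53 (95% CI -1.71 to 0.65). Psme2 was at -0.15 without VEH library 3 and at -0.87 without CIII library 1. Psme1 counts were 62.5, 40.5 and 304 against 94.6, 25.2 and 102, so that the libraries numbered 3 were the highest in both groups. Psme2b, a close copy of Psme2 whose reads could be shared with it, was at -0.59 (95% CI -1.83 to 0.66, -0.24 without VEH library 3). Without both libraries numbered 3 the median of the 5 activator genes went from -0.53 to -0.03.

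The immunoproteasome genes did not pass in F4/80hi Mϕ. Psmb8 had 104, 158 and 418 counts after VEH against 212, 96.1 and 158 after CIII (log2 fold change -0.36, 95% CI -1.56 to 0.84). Psmb9 had 81.1, 30.0 and 107 against 104, 37.3 and 59.1 (-0.06, 95% CI -1.31 to 1.18, and 0.04 with equal totals per library), and Psmb10 had 138, 91.4 and 226 against 134, 74.5 and 120 (-0.42, 95% CI -1.36 to 0.53, -0.084 without VEH library 3 and -0.73 without VEH library 2). In each of the 3 genes VEH library 3 was the highest of all, and groups overlapped. Without both libraries numbered 3 the median of the 3 genes went from -0.36 to 0.16. Psmb9 lies beside Tap1 on the opposite strand and overlaps it, and the strand setting of the counting is not given in the sources used here.

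In F4/80lo Mϕ, the direction of the proteasome genes as a whole depended on the libraries and the processing. Of the 42 genes 25 were lower after CIII and 17 higher, with a median log2 fold change of -0.07, beside 54.1% lower and a median of -0.05 over all 10718 genes tested. With equal totals per library 21 were lower and the median was 0.01. It was -0.25 without CIII library 1 (28 lower), 0.0089 without CIII library 2 (21 lower), 0.04 without both libraries numbered 3 (19 lower) and 0.16 with array weights (28 higher). They took up 0.443% ± 0.047 of counts in VEH and 0.439% ± 0.088 in CIII libraries (SD, n = 3). At an unadjusted p under 0.05, 2 genes were lower and 0 higher (background 1.61% and 1.08%), and with the block 5 were lower and 1 higher (background 3.85% and 3.03%). Groups did not overlap in 5 lower and 0 higher genes (background 4.92% and 3.82%). After adjustment 0 genes passed, with or without the block (0% of all genes), the smallest adjusted p of a proteasome gene being 1.00 without and 0.649 with it. After adjustment edgeR called 0 genes, DESeq2 and array weights called 2 each and limma without both libraries numbered 3 called 12, and 0 of these were proteasome genes.

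Psmd11, a scaffold subunit of the lid, had 106, 77 and 110 counts with VEH against 56.0, 16.0 and 55.3 with CIII. Its groups did not overlap, and its log2 fold change was -1.36 (SE 0.50, 95% CI -2.46 to -0.26; limma, adjusted p = 1.00 and 0.649 with the block). Psmb2 had 47.7, 46.2 and 86.3 counts against 37.6, 2.28 and 22.1, with a log2 fold change of -2.03 (SE 0.79, 95% CI -3.76 to -0.30). The value of 2.28 in CIII library 2 stood for 1 read, and this library, the shallowest and the one with the high resident Mϕ marker sum of 1439, had the lowest count of both genes. The part of depth and of these markers in the result was not tested. Without it Psmd11 was at -0.78 and Psmb2 at -0.97, and 0 proteasome genes passed. Without VEH library 1 Psmd11 (-1.29), and without VEH library 3 Psmb2 (-1.74), also missed the threshold. Without CIII library 1, 4 genes passed as lower (Psmb2, Psmd11, Psmd14 and Psmd7), and without both libraries numbered 3 Psmd11 (-1.55) and Psmb2 (-2.09) did. With array weights Psmb2 was at -0.84 and missed the threshold.

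With the block, Psma4 (-0.64), the lid subunit Psmd7 (-0.81) and the deubiquitinase Psmd14 (-1.10) passed as lower too. Psma4 had 159, 123 and 119 counts against 98.6, 75.4 and 82.9, and Psmd7 had 101, 145 and 121 against 96.5, 43.4 and 77.4, both without overlap. Psmd14 had 55.9, 68.0 and 76.6 against 68.1, 16.0 and 25.4, which overlapped. Without CIII library 2 Psmd14 was at -0.65 and Psmd7 at -0.48, and without CIII library 1 Psmd14 was at -1.67. Of the 8 lid genes 7 were lower, at a median of -0.37, and Psmd3 at 0.25 was the exception. Psmd12 was at -0.51 (95% CI -1.35 to 0.34). The ATPases ran from -0.52 (Psmc3) to 0.22 (Psmc2), the base scaffold genes from -0.15 (Psmd1) to 0.23 (Psmd2), the alpha ring from -0.64 (Psma4) to 0.31 (Psma2) and the assembly chaperones from -0.10 (Psmd10) to 0.66 (Psmd9, 0.18 without VEH library 1 and 1.17 without VEH library 2). By replicate number, the median over the 42 genes was 0.29, -0.34 and -0.26.

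The 3 immunoproteasome genes were above 0 in F4/80lo Mϕ. Psmb9 had 74.5, 24.4 and 88.6 counts after VEH against 117, 45.7 and 143 after CIII, higher within each replicate number but with overlapping groups (log2 fold change 0.73, 95% CI -0.50 to 1.97), and it passed with the block. Without VEH library 2 its log2 fold change was 0.17, and without CIII library 2 it was 1.23. Psmb8 had 200, 196 and 307 against 376, 160 and 304 (0.20, 95% CI -0.67 to 1.07), and Psmb10 had 130, 142 and 198 against 201, 146 and 166 (0.14, 95% CI -0.60 to 0.87). Psmb5, with chymotrypsin-like activity, had 22.1, 16.7 and 15.3 counts against 12.1, 4.57 and 8.84, without overlap (-1.07, 95% CI -2.40 to 0.26). Psmb6 was at -0.51 (95% CI -1.57 to 0.54, -0.96 without CIII library 1 and -0.10 without CIII library 3) and Psmb7 at -0.005 (95% CI -0.93 to 0.92, and 0.07 with equal totals per library). Of the activators, Psme1 was at -0.02 (95% CI -1.42 to 1.39), Psme2 at -0.74 (95% CI -2.45 to 0.96) and Psme3, the nuclear PA28γ, at 0.44 (95% CI -0.48 to 1.35).

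Each immunoproteasome subunit takes the place of 1 constitutive subunit, and their ratio was taken within each library. Ratios are of normalized counts plus 1, so that low counts pull them towards 1 by an amount that depends on the size factor. The ratio of Psmb8 to Psmb5 in F4/80lo Mϕ was 8.70, 11.2 and 18.9 with VEH against 28.9, 28.9 and 31.0 with CIII. The groups did not overlap, and the ratio was 2.41-fold higher after CIII on the geometric mean, at p = 0.1 (exact permutation test, two-sided, adjusted p = 0.6 over 6 comparisons), the smallest value that 3 against 3 libraries can give. As ratios of reads, with nothing added, the values were 9.05, 11.8 and 20.1 with VEH against 31.2, 35 and 34.4 with CIII. The read ratio of 35 in CIII library 2 rested on 70 reads against 2 reads and had an exact 95% interval from 9.33 to 295, which covers counting error only. For F4/80hi Mϕ the ratio was 3.99, 6.16 and 33.5 after VEH and 10.8, 11.8 and 12.2 after CIII (p = 0.9, exact permutation test, adjusted p = 0.9), VEH library 3 being the highest of all. Without both libraries numbered 3, it was 3.99 and 6.16 after VEH and 10.8 and 11.8 after CIII, which did not overlap.

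The ratio of Psmb9 to Psmb6 was 0.52, 0.16 and 1.20 in VEH and 0.76, 0.58 and 3.03 in CIII libraries of F4/80lo Mϕ, and 0.36, 0.28 and 0.74 against 1.15, 0.67 and 0.92 in F4/80hi Mϕ. In both subpopulations it was higher with CIII within each of the 3 replicate numbers, with log2 differences of 1.25 and 1.08, and groups overlapped (p = 0.4 and p = 0.2, exact permutation tests, adjusted p = 0.8 and 0.6). The F4/80lo difference ranged from 0.47 (without VEH library 2) to 1.94 (without VEH library 3) when 1 library was left out. The ratio of Psmb10 to Psmb7 was 2.36, 2.50 and 5.64 against 3.74, 2.44 and 4.88 in F4/80lo Mϕ and 1.31, 1.08 and 7.76 against 2.69, 1.29 and 6.16 in F4/80hi Mϕ, with log2 differences of 0.14 and 0.32 (p = 0.9 for both, exact permutation tests). Between subpopulations, with 6 libraries each, F4/80lo minus F4/80hi was 0.87 on the log2 scale for Psmb8 to Psmb5 (p = 0.134, exact permutation test, adjusted p = 0.403 over 3 comparisons, and p = 0.0625 when libraries of the same treatment and number were paired), 0.22 for Psmb9 to Psmb6 (p = 0.747) and 0.44 for Psmb10 to Psmb7 (p = 0.429). Without VEH library 3 of F4/80hi Mϕ the first of these was 1.21, at an unadjusted p = 0.039, and without all libraries numbered 3 it was 1.17, at p = 0.143 (exact permutation tests).

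**Figure D4:**
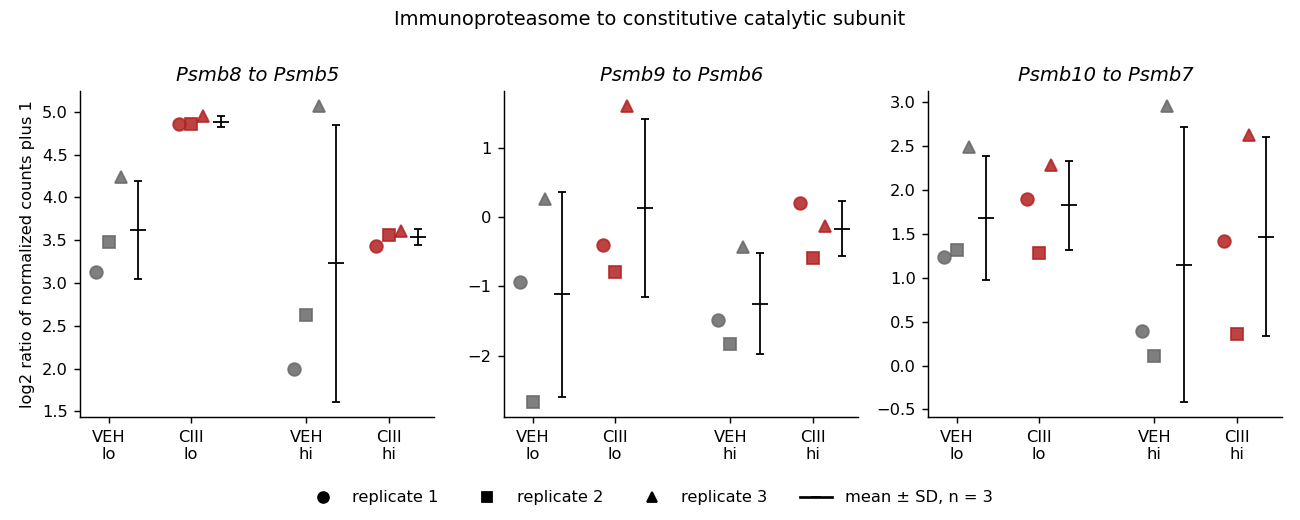
Log2 of the within-library ratio of normalized counts plus 1 (y axis) of each immunoproteasome subunit to the constitutive subunit it replaces, by treatment and subpopulation; symbols mark the replicate number and bars the mean ± SD of 3 libraries. Psmb8 to Psmb5 of F4/80lo Mϕ lies between 4.85 and 4.95 after CIII, above all its VEH libraries, and in the other panels and groups the ranges of CIII and VEH overlap.

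Whether the response to CIII differed between subpopulations was tested over 10097 genes. Of the proteasome genes, 2 passed an unadjusted p under 0.05 (background 1.71%), and with the block 3 did (background 5.52%). For Psmb4 the F4/80lo response exceeded the F4/80hi response by 1.48 on the log2 scale (95% CI 0.54 to 2.43), and for Psma2 by 1.12 (95% CI 0.16 to 2.07; limma, adjusted p = 0.999 for both). In F4/80lo Mϕ Psmb4 had 248, 145 and 160 counts after VEH and 223, 212 and 179 after CIII, and Psma2 had 144, 162 and 85.6 against 177, 176 and 123, both with overlapping groups. Psmd11 differed the other way, by -1.48 (95% CI -3.10 to 0.14), and passed with the block and without both libraries numbered 3 (-1.97). Leaving out 1 library it ran from -1.86 (without VEH library 3 of F4/80hi Mϕ) to -0.90 (without CIII library 2 of F4/80lo Mϕ). It passed in 3 of these 12 cases, without VEH library 3 of F4/80hi Mϕ (-1.86) and without CIII library 1 (-1.78) or 3 (-1.77) of F4/80lo Mϕ. Psmb1 came next at 0.71 (95% CI -0.27 to 1.70), with 0.45 without VEH library 3 and 0.97 without CIII library 3 of F4/80lo Mϕ. Without both libraries numbered 3, Psmb4 remained past the threshold (1.20) and Psma2 did not (0.80).

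Other genes of the pathway were taken from lists. Of 8 genes (assembly genes, subunits with other names, and Psmf1), 8 were lower in F4/80hi Mϕ after CIII, with a median of -0.62. At an unadjusted p under 0.05, 3 passed (46.5% of all genes were lower, and 2.65% passed as lower). Paaf1 and Ecm29 stood on the planned list but were left out of these 8 genes. Pomp, the chaperone that matures the beta ring, had 588, 758 and 541 counts after VEH against 433, 332 and 224 after CIII (-0.97, 95% CI -1.79 to -0.15). Psmg4, an alpha ring chaperone, had 65.2, 52.3 and 110 against 36.1, 32.4 and 21.3 (-1.27, 95% CI -2.21 to -0.33), and neither gene's groups overlapped. Sem1, a small lid subunit, was at -1.21 (95% CI -2.34 to -0.09). In F4/80lo Mϕ 3 of the 8 genes were lower, Sem1 alone passed (background 1.61%, log2 fold change -1.03, 95% CI -1.81 to -0.24), with 435, 275 and 297 counts against 176, 117 and 202, and Pomp was at 0.04 (95% CI -1.03 to 1.12). Without both libraries numbered 3, an alternative for these lists chosen after seeing the data, 6 of 8 genes were lower in F4/80hi Mϕ (median -0.55). Pomp (-0.81) then passed, while Psmg4 (-0.75) and Sem1 (-0.65) did not. Leaving out 1 library at a time, Psmg4 passed in 6 of 6 cases, Pomp in 2 (without CIII library 1 or VEH library 3) and Sem1 in 2 (without CIII library 1 or VEH library 2), where Sem1 ran from -1.62 to -0.72. Sem1 (-1.27) and the chaperone Psmg1 (-2.83) passed as lower in F4/80lo Mϕ without both libraries numbered 3. Psmg1 had 0 counts in CIII library 2 of F4/80lo Mϕ, the shallowest, and was at -0.60 when only that library was left out. Sem1 missed the threshold without CIII library 2 (-0.80) and without VEH library 1 (-0.83) there.

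Of the 7 tested regulators of proteasome genes, 5 were higher in F4/80hi and 3 in F4/80lo Mϕ after CIII, and 0 passed in either direction. Nfe2l1, the transcription factor that raises proteasome genes when proteolysis is short, was at -0.04 (95% CI -1.16 to 1.08) in F4/80hi and -0.61 (95% CI -1.75 to 0.53) in F4/80lo Mϕ. In F4/80lo Mϕ it was at -1.22 without VEH library 1, where it passed as lower, and at -0.28 without VEH library 2. With the block (background 5.07%), the repressor Bach1 (0.94) and the protease Ddi2 (0.74) passed as higher in F4/80hi Mϕ. Leaving out 1 library, Bach1 ran from 0.57 to 1.44 and Ddi2 from 0.39 to 1.06 there. Mafg was the gene with the smallest p in F4/80lo Mϕ (-0.53, 95% CI -1.49 to 0.43). It was at -0.06 without CIII library 1 and at -0.91 without CIII library 2. Of 16 genes for ubiquitin and substrate delivery, 10 were lower in F4/80hi and 12 in F4/80lo Mϕ. Rps27a, a ubiquitin-ribosomal fusion gene, was the one that passed, in F4/80hi Mϕ (background 2.65%), with 487, 252 and 224 counts against 191, 161 and 33.4 (-1.57, 95% CI -3.00 to -0.13), and Ubqln2 had the smallest p in F4/80lo Mϕ (-0.97, 95% CI -2.11 to 0.18). Rps27a missed the threshold without CIII library 3 (-0.78), VEH library 1 (-1.22) or VEH library 2 (-1.70). Of 12 genes for peptide loading on MHC class I and their interferon regulators, 9 were higher in F4/80hi and 8 in F4/80lo Mϕ, with medians of 0.41 and 0.36, and 0 passed without the block. With it, 3 were higher in each subpopulation (background 5.07% in F4/80hi, 3.03% in F4/80lo), and the chaperone gene Calr was lower in F4/80lo Mϕ (background 3.85%). Tap1, the peptide transporter, was among them in both, at 0.86 (95% CI -1.03 to 2.76) in F4/80hi and 0.81 (95% CI -0.36 to 1.98) in F4/80lo Mϕ. Leaving out 1 library, Tap1 ran from 0.22 to 1.84 in F4/80hi and from 0.42 to 1.34 in F4/80lo Mϕ. In F4/80lo Mϕ the smallest p was that of Irf1 (1.34, 95% CI -0.02 to 2.69), and in F4/80hi Mϕ that of the tapasin gene Tapbp (0.70, 95% CI -0.25 to 1.64). Irf1 in F4/80lo Mϕ was at 0.71 without VEH library 2 and at 2.04 without VEH library 3.

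These 3 lists were also taken without both libraries numbered 3. Of the 12 peptide loading genes, 5 then passed an unadjusted p under 0.05 as higher in F4/80lo Mϕ (background 2.17%) and 3 in F4/80hi Mϕ (background 3.48%), and 0 as lower, with medians of 0.50 and 0.54. Among the 5 were Irf1 (1.94), Tapbp (1.31), the MHC class I activator Nlrc5 (1.13) and Tap1 (1.06), and the 3 were Irf1 (1.49), Tap1 (1.26) and its partner Tap2 (1.04). None passed adjustment, the smallest value being that of Irf1 in F4/80lo Mϕ (limma, adjusted p = 0.0619). Without VEH library 3 alone, the count was 5 for F4/80lo and 4 for F4/80hi Mϕ. Without CIII library 2 it was 2 in F4/80lo, and without CIII library 3 it was 1 in F4/80hi Mϕ, whereas leaving out any other library gave 0. In F4/80hi Mϕ Tap2 ran from -0.39 (without VEH library 3) to 2.07 (without CIII library 3) when 1 library was left out. It was at -0.71 in F4/80lo Mϕ without both libraries numbered 3. Of the regulators, Bach1 (1.13) passed as higher in F4/80hi Mϕ without both libraries numbered 3 and 0 passed in F4/80lo Mϕ. Without VEH library 3 alone, Bach1 and Ddi2 passed as higher in both subpopulations. Of all genes, 522 of 10471 in F4/80hi and 306 of 10629 in F4/80lo Mϕ then did. Of the ubiquitin and delivery genes, Rps27a (-0.996) and the deubiquitinase Uchl5 (-0.95) passed as lower in F4/80hi Mϕ without both libraries numbered 3, and 0 in F4/80lo Mϕ.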

How the data were processed

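Values were analysed for 12 libraries of sorted Mϕ (3 VEH and 3 CIII in each of F4/80lo and F4/80hi). The authors made QuantSeq 3′ libraries with unique molecular identifiers, trimmed reads with Bbduk, mapped them to GRCm38 with STAR, collapsed duplicates, counted with HTSeq and divided by DESeq2 size factors, set for each subpopulation separately (versions and the treatment of multi-mapping reads are not given in the sources used here). The deposited signal is thus a normalized count, and 100% of values were whole multiples of 1 read within a tolerance of 0.01, which gave back the reads.

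Symbols and coordinates came from GENCODE (GRCm38) for 47224 of 47643 identifiers, and promoter windows from RefSeq. Genes with a mean of at least 3 were tested on log2 of the normalized count plus 1, which understates changes of low genes, with limma 3.58.1 (trend, two-sided, Benjamini-Hochberg over all genes tested). Ratios were tested by exact permutation (scipy 1.17.1), and their intervals are exact binomial (Clopper-Pearson). edgeR 4.0.16 and DESeq2 1.42.0 were run as alternatives on the recovered reads, called 408 and 423 genes for F4/80hi and 286 and 296 for F4/80lo Mϕ at an unadjusted p under 0.05, and scripts were tested on simulated data. Samples with the same replicate number deviated together (correlations 0.22, 0.41 and 0.64 for F4/80hi, against 0.12, 0.24 and 0.50 for F4/80lo Mϕ), but number 1 of VEH correlated more with number 2 of CIII (0.28 and 0.17) than with its own, so that number 3 alone stood apart from both others. Because each same-number correlation exceeded 0.1, the number was treated as pairing them. The block is printed where it changed a call or count. That rule cannot show pairing of numbers 1 and 2, since unmatched numbers 1 and 2 also correlated. Their values were 0.28 and 0.15 for F4/80hi and 0.17 and 0.10 for F4/80lo Mϕ. Calls with the block thus rest on an assumed pairing. No label ties a number to a mouse or day.

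Named with values were the catalytic pairs, Psme1, Psme2, the 8 genes of smallest p in each subpopulation, the extremes of each class, the 4 genes of smallest p for the difference of responses, the gene of smallest p in each other list, and Pomp, Nfe2l1 and Tap1. The members and all lists were chosen with earlier results of these data known.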

Additional observations from a re-analysis of the deposited data

Results flagged for a closer look

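In the test of the difference of responses, 2 of 42 proteasome genes passed an unadjusted p under 0.05, beside 1.71% of the 10097 genes tested. For Psmb4 the F4/80lo response exceeded the F4/80hi response by 1.48 on the log2 scale, and for Psma2 by 1.12. Both were unadjusted calls (limma, adjusted p = 0.999 for each), and the Psma2 call was lost without VEH library 3 of F4/80lo Mϕ, where the difference was 0.84, without CIII library 1 of F4/80lo Mϕ (1.03), and without VEH library 3 (1.02) or CIII library 3 (1.00) of F4/80hi Mϕ. The Psmb4 call was kept whichever single library was left out, at 1.28 to 1.72.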

How the results depend on the processing

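With the replicate number as a block, 5 proteasome genes were lower and 1 was higher in F4/80lo Mϕ, and 8 were lower and 1 was higher in F4/80hi Mϕ, while the block changed no call of the ratios (within a subpopulation 3 pairs cannot pass it). With array weights 3 proteasome genes were higher (Psmb8, Psmb9 and Psme1) and 2 lower in F4/80lo Mϕ. Of all 10718 genes tested, 582 were then higher and 646 lower at the same threshold. With these weights Psmb2 missed the threshold (-0.84), and the median of the 42 genes was 0.16. In F4/80hi Mϕ 3 were lower with equal totals per library, and 2 lower and 1 higher without both libraries numbered 3, where the ratio of Psmb9 to Psmb6 in F4/80lo minus F4/80hi Mϕ turned to -0.27. Pseudocounts of 0.5 and 5, a minimum mean of 10 or none, quantile normalization, edgeR and DESeq2 left both counts within 1.5 times. The causes of these changes were not tested. Leaving out 1 library gave 0 to 4 lower genes in F4/80lo, 1 to 5 lower and 0 to 1 higher in F4/80hi Mϕ, and 1 to 3 genes for the difference of responses. The log2 ratio in F4/80lo minus F4/80hi Mϕ then ran from 0.59 to 1.21 for Psmb8 to Psmb5 and from -0.20 to 0.66 for Psmb9 to Psmb6. Many small fold changes turned their sign. In F4/80lo Mϕ, quantile normalization gave -0.025 for Psmb1 and 0.034 for Psmd10, equal totals 0.066 for Psmb7 and 0.056 for Psme1, edgeR -0.0075 for Psmb1, and DESeq2 0.0076 for Psmb7. Array weights gave 0.37 for Psmd1, 0.82 for Psmd10, 0.93 for Psme1 and 0.37 for Psme2. Without both libraries numbered 3, Psmb1 was at -0.0073, Psmb7 at 0.016, Psmd1 at 0.024, Psmd10 at 0.20 and Psme1 at 0.35. In F4/80hi Mϕ, quantile normalization gave -0.011 for Psma3, equal totals 0.044 for Psmb9, 0.10 for Psmc5 and 0.025 for Psmd9, edgeR -0.076 and DESeq2 -0.077 for Psmd11, and array weights 0.15 for Psmb8, 0.22 for Psmb9 and 0.054 for Psmc5. Without both libraries numbered 3, Psma3 was at -0.19, Psmb8 at 0.16 and Psmb9 at 0.33. Leaving out 1 library gave ranges across 0 in F4/80lo Mϕ for Psmb1 (-0.26 to 0.26), Psmb7 (-0.23 to 0.24), Psmb8 (-0.057 to 0.56), Psmd1 (-0.51 to 0.039), Psmd10 (-0.65 to 0.19), Psmd3 (-0.084 to 0.79), Psme1 (-0.40 to 0.67) and Psme2 (-1.27 to 0.31). In F4/80hi Mϕ it did so for Psma3 (-0.16 to 0.29), Psmb8 (-0.80 to 0.21), Psmb9 (-0.60 to 0.30), Psmc5 (-0.21 to 0.25), Psmd11 (-0.45 to 0.50), Psmd2 (-0.033 to 0.30), Psmd9 (-0.37 to 0.44) and Psme1 (-1.13 to 0.31). The log2 ratio after CIII minus VEH ranged from -0.31 to 1.23 for Psmb8 to Psmb5 in F4/80hi Mϕ, and for Psmb10 to Psmb7 from -0.26 to 1.22 in F4/80hi and -0.091 to 0.55 in F4/80lo Mϕ. Depth limits low genes: 2 proteasome genes of F4/80hi and 9 of F4/80lo Mϕ had under 10 reads in some library.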

Other observations

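Over all 10097 genes tested in both subpopulations, 14.9% were highest and 10.7% lowest in library 3 in all 4 groups, and 3 and 5 of the 42 proteasome genes were. Psmc1, Psme1 and Psme4 were highest in library 3 in all 4 groups, with Psmc1 above the mean of the other libraries of its group by 1.11 to 1.79 and Psme1 by 0.97 to 2.57 on the log2 scale. Psma1, Psma6, Psmb7, Psmc2 and Psmc5 were lowest in library 3 in all 4 groups, with Psmb7 at -0.68 and -0.74 in the VEH and CIII libraries of F4/80lo Mϕ and at -1.70 and -1.47 in those of F4/80hi Mϕ. This pattern was seen after the values were known, was not particular to proteasome genes and was not tested.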
